A study of Arabidopsis thaliana and Medicago truncatula and Solanum lycopersicum with 15 samples.

Results

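Root tip chromatin of Arabidopsis thaliana held 176 loci that were called accessible in both lists from affinity-purified root tip nuclei and in none of the 4 lists from mature root epidermis. The regions of 8 lists on the 5 nuclear chromosomes were joined wherever they overlapped by at least 1 bp, which gave 61830 merged loci. The 176 loci, called root tip loci below, are 0.285% of them. They are 1.39% of the 12627 loci present in both affinity-purified root tip lists, with a Wilson 95% interval of 1.20% to 1.61%. They were chosen by presence of a called region in the 2 root tip lists and absence of one from the 4 epidermal lists, so neither is a result. The number depends on the lists used: the same rule gave 4582 loci without INTACT replicate 1, 1417 without INTACT replicate 2 and 286 without hair cell replicate 1. Absence from a list says that no region was called there, not that the DNA was shown to be closed.

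Accessibility was measured by ATAC-seq, in which Tn5 transposase inserts sequencing adapters into exposed DNA of isolated nuclei. All plants were of the Col-0 background, and 50000 nuclei went into each reaction. The root tip INTACT group held nuclei of all cells of the terminal 1 cm of the root, from plants with the transgenes UBQ10p:NTF and ACT2:BirA. INTACT is a method in which a nuclear envelope fusion protein (NTF) is biotinylated by the ligase BirA, so that tagged nuclei bind to streptavidin beads, and the UBQ10 promoter is active in most cells. The root tip sucrose group held nuclei of the same tissue that were sedimented through sucrose without affinity capture, and the design text describes the plants as carrying the same transgenes. The submitters' codes give an INTACT and a sucrose sample the same number, and whether these shared plants is not stated. Hair cell and non-hair cell nuclei came from the fully differentiated zone, between the first full-length root hairs and the lateral roots. Hair cell nuclei were captured from ADF8p:NTF/ACT2p:BirA plants, in which a hair cell promoter drives the tag. Non-hair nuclei came from GL2p:NTF/ACT2p:BirA plants, in which the promoter is active in non-hair cells. Each group had 2 biological replicates, and plant age and the number of lines per transgene are not given.

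The root tip contains the meristem, where a small stem cell niche with its quiescent centre supplies dividing cells to every tissue of the root. The cells then elongate and differentiate, and the outermost files become hair or non-hair epidermis. PLETHORA transcription factors such as PLT2 maintain the niche and the meristem. MYB23 and WEREWOLF are MYB factors that specify non-hair fate in the young epidermis, acting with bHLH partners on GL2, while ADF8 is an actin regulator of hair cells. Most accessible sites in plant genomes lie close to genes, whereas the pericentromeres are compact, poor in genes and rich in transposons. A 1 cm tip mixes these cell types, so a site open in few cells and a site weakly open in many cells cannot be told apart in these bulk samples.

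Regions per list numbered 23288 and 23690 for root tip INTACT, 11702 and 15813 for root tip sucrose, 52373 and 35679 for hair cells, and 52278 and 31212 for non-hair cells. The lists hold positions only, with no read counts or scores, so the depth behind them is unknown and region width is the only graded value. At GL2, within 2 kb of the gene, non-hair lists held 8 and 4 regions and hair lists 4 and 4, while the INTACT and sucrose root tip lists held 0. The non-hair regions covered 4820 and 2879 bp, and the hair regions 1303 and 981 bp. At ADF8 the hair lists covered 1251 and 1210 bp, against 396 and 350 bp in the non-hair lists, 243 and 0 bp in the INTACT lists and 0 and 140 bp in the sucrose lists. Both genes also supply the transgene promoters of the epidermal plants, whose reads map to the same places.

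The sucrose lists were not used to choose the loci and are a second view of the same tissue. Of the 176 root tip loci, 31 overlapped a region in sucrose replicate 1 and 24 in sucrose replicate 2. At least 1 sucrose list held 38 of them, or 21.6% (Wilson interval 16.2% to 28.2%), and both held 17, or 9.66% (6.12% to 14.9%). The remaining 138 were in neither, and 4 of those lay under 150 bp from a sucrose region. Among all loci in both INTACT lists the same shares were 86.5% in at least 1 and 68.2% in both sucrose lists. Wilson intervals here cover counting error only, and neighbouring loci are not independent. With 2 lists a group, an exact permutation test could not give a p below 0.333, so shares are reported without a test. Chosen without INTACT replicate 1, 0.480% of the loci were in both sucrose lists, and chosen without INTACT replicate 2, 2.19% were.

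Among all loci in both INTACT lists, whatever their width, the share with sucrose support was lowest for root tip loci and highest for loci in every epidermal list. In at least 1 sucrose list it was 21.6% for the 176 root tip loci, 37.9% for the 153 loci in 1 epidermal list, 34.8% for the 250 in 2, 58.0% for the 495 in 3, and 90.5% for the 11553 in all 4 (called shared loci below). In both sucrose lists the shares were 9.66%, 19.0%, 18.4%, 25.5% and 72.6% in that order. For at least 1 sucrose list, the interval of the root tip loci lay below that of loci in 1 epidermal list (30.6% to 45.8%), whereas for both sucrose lists it overlapped the interval of that class (13.5% to 25.9%). The classes with 1 and 2 epidermal lists did not differ beyond their counting intervals. Loci in all 4 epidermal lists and no INTACT root tip list, 6573 in number and called epidermis-only loci below, had a sucrose region in 7.59% of cases.

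**Figure D1:**
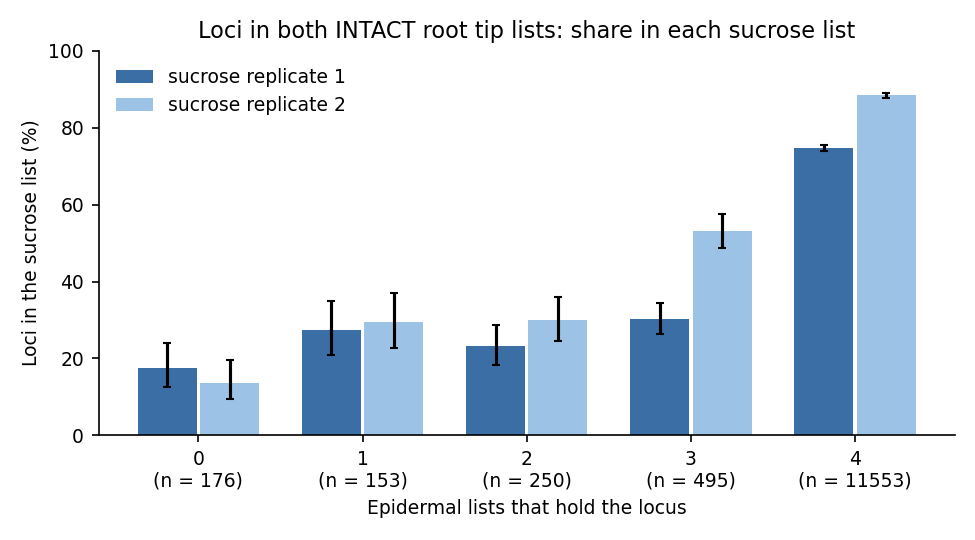
Percent of loci in both INTACT root tip lists that overlap a region of sucrose replicate 1 or 2 (bars), by the number of epidermal lists that hold the locus; error bars are Wilson 95% intervals. Root tip loci, at 0 epidermal lists, are lowest with 17.6% and 13.6%, against 74.8% and 88.4% for loci in all 4.

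Root tip loci were narrower than shared loci, and width was taken from the lists that chose them, so it is given as a description. As the mean over both INTACT lists, their width had a median of 258.75 bp, quartiles of 201 and 305.875 bp and a maximum of 1526 bp, against a median of 409.5 bp for shared loci. The smallest region width was 191 bp in INTACT replicate 1 and 211 bp in INTACT replicate 2, and both values recur for many regions. At this minimum in both lists were 47 root tip loci (26.7%), against 336 shared loci (2.91%) and 3.89% of all loci in both INTACT lists. Loci in 1 epidermal list were nearly as narrow, with 22.2% at the minimum (interval 16.4% to 29.4%, against 20.7% to 33.7% for root tip loci) and a median width of 273.5 bp, and those in 2 lists had 14.4% and 281 bp.

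Sucrose support was also lower than that of shared loci within classes of like INTACT width. Only the width of the INTACT regions was matched, and a sucrose region counted wherever it joined the merged locus. The median extent of the merged locus was 323 bp for root tip loci and 630 bp for shared loci. For loci at the list minimum in both INTACT lists it was 225 and 390 bp. The part of this difference in the sucrose shares was not tested. At the list minimum in both INTACT lists, 5 of 47 root tip loci (10.6%) were in at least 1 sucrose list, against 184 of 336 shared loci (54.8%). Between 201 and 300 bp the counts were 17 of 82 (20.7%) and 1762 of 2214 (79.6%). Between 300 and 450 bp they were 8 of 30 (26.7%) and 3847 of 4222 (91.1%). Above 450 bp, 8 of 17 root tip loci (47.1%, interval 26.2% to 69.0%) were in a sucrose list, against 4663 of 4781 shared loci (97.5%, interval 97.1% to 97.9%). In each of these 4 width classes the interval of the root tip loci lay below that of the shared loci. Against loci in 1 or 2 epidermal lists the intervals overlapped in all 4 classes. Between 300 and 450 bp, loci in 1 epidermal list had 54.9% (41.4% to 67.7%) and loci in 2 lists 50.6% (39.8% to 61.4%). The interval of the root tip loci there was 14.2% to 44.4%. Above 450 bp, loci in 1 epidermal list had 64.7% (41.3% to 82.7%) and loci in 2 lists 75.8% (59.0% to 87.2%). At the minimum, loci in 1 epidermal list had 6 of 34 in a sucrose list (17.6%, interval 8.35% to 33.5%) and those in 2 lists 9 of 36 (25%, interval 13.8% to 41.1%), beside the 10.6% of root tip loci (interval 4.63% to 22.6%). Between 201 and 300 bp, root tip loci had 20.7% (interval 13.4% to 30.7%), loci in 1 epidermal list 25.5% (15.5% to 38.9%) and loci in 2 lists 12.7% (7.60% to 20.6%).

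**Figure D2:**
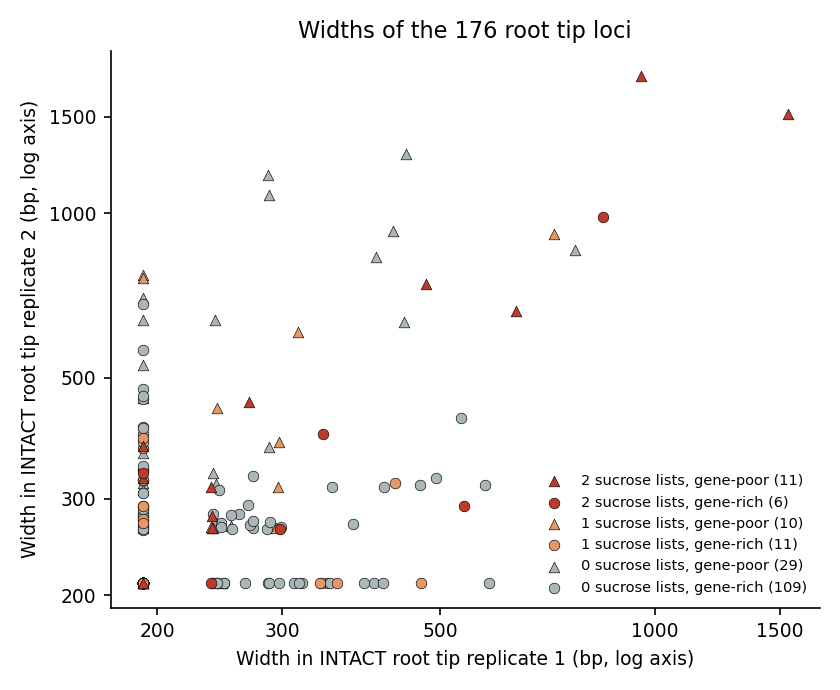
Width in bp of each of the 176 root tip loci in INTACT replicate 1 and INTACT replicate 2 (log axes), coloured by the number of sucrose lists that hold it; triangles are gene-poor loci (fewer than 20 protein-coding genes in the surrounding 200 kb) and circles gene-rich ones. Points line up at the smallest widths, with 94 loci at 191 bp in replicate 1 and 73 at 211 bp in replicate 2, and triangles make up 12 of the 13 loci with a mean width of 500 bp or more.

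A larger share of root tip loci than of shared loci lay in gene-poor sequence. Gene-poor was set as fewer than 20 protein-coding genes in the surrounding 200 kb, a limit chosen after positions were seen. Of the 176 loci, 50 (28.4%, interval 22.3% to 35.5%) were gene-poor, against 280 shared loci (2.42%), 104 epidermis-only loci (1.58%), 3.97% of all merged loci and 3.26% of all loci in both INTACT lists. Loci in 1 epidermal list came close, with 32 of 153 gene-poor (20.9%, interval 15.2% to 28.0%, which overlaps that of the root tip loci), and of those in 2 lists 15 of 250 were. With equal numbers of the widest regions from each INTACT-purified list, 762 loci met the rule and 14.8% of them were gene-poor. The median number of genes in the surrounding 200 kb was 4 for these 50 loci, 43 for all root tip loci and 52 for shared loci. With 0 to 9 genes in the window were 26.1% of root tip loci, 0.857% of shared loci and 0.487% of epidermis-only loci.

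The lists themselves differed in this respect. Gene-poor sequence held 7.82% of the regions of INTACT replicate 2 and 2.51% of those of INTACT replicate 1, against 3.08% and 3.16% in the sucrose lists, 2.23% and 2.02% in the hair lists and 1.61% and 2.05% in the non-hair lists. Chosen without INTACT replicate 2, on replicate 1 alone, 1417 loci met the rule and 6.85% were gene-poor. Chosen without INTACT replicate 1, on replicate 2 alone, 4582 loci met it and 28.0% were gene-poor. On INTACT replicate 1 alone the share was thus lower than on both, yet above the 2.51% of that list's own regions, and the part of INTACT replicate 2 in the 28.4% was not tested.

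**Figure D3:**
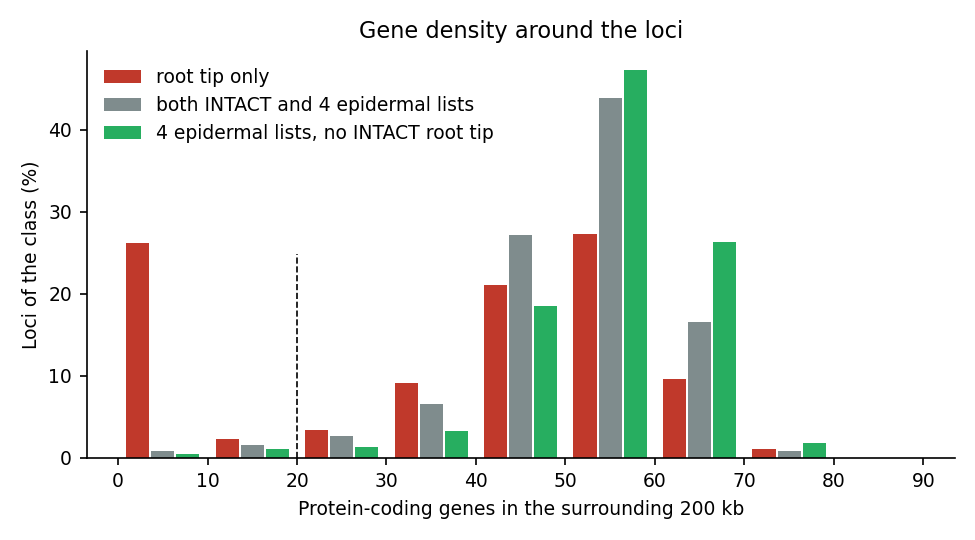
Percent of loci (bars) by the number of protein-coding genes in the surrounding 200 kb, for root tip, shared and epidermis-only loci; the dashed line marks the limit of 20 genes. The lowest bin holds 26.1% of root tip loci, 0.857% of shared loci and 0.487% of epidermis-only loci.

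Gene-poor root tip loci were grouped along the chromosomes. There were 8 on chromosome 1, 5 on chromosome 2, 6 on chromosome 3, 6 on chromosome 4 and 25 on chromosome 5. Of the 50, 43 had another root tip locus within 100 kb, against 39 of the 126 gene-rich loci. Gene-poor sequence is 13.5% of the genome in steps of 10 kb but held 50 of the 176 loci. Root tip loci were therefore denser there, which by itself makes near neighbours more frequent among the gene-poor loci. A single stretch of 405.023 kb, at chr5:11660351-12065373, held 20 of them. In it the INTACT lists held 48 and 113 regions, the sucrose lists 34 and 37, the hair lists 31 and 25, and the non-hair lists 22 and 18. Of these 20 loci, 9 were in at least 1 sucrose list and 5 in both. A stretch on chromosome 1, chr1:15103110-15201266, held 5 root tip loci and no sucrose support for any of them, with 7 and 25 INTACT regions, 1 and 0 sucrose regions, 2 and 0 hair regions and 0 non-hair regions. A stretch on chromosome 2, chr2:3612115-3715803, held 4, of which 3 were in a sucrose list, with 14 and 27 INTACT regions, 16 and 14 sucrose, 14 and 17 hair, and 16 and 12 non-hair regions.

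Within 25 kb of gene-poor root tip loci, each sucrose and epidermal list had no region for some of the 50. By the rule, all 50 had a region from each INTACT list and none at the locus from an epidermal list. The values are a description without a background, since the same counts were not made for other gene-poor positions. Windows of close neighbours also overlap. Of the 50, 9 had no region of sucrose replicate 1 and 12 none of sucrose replicate 2, while 12 and 26 had none of the hair lists and 32 and 21 none of the non-hair lists. The median number of regions in that window was 4 and 11 in the INTACT lists, 2 and 2 in the sucrose lists, 2 and 0 in the hair lists and 0 and 1 in the non-hair lists. Gene-poor sequence makes up 13.5% of the genome in steps of 10 kb. In all of it the hair lists had 1170 and 720 regions and the non-hair lists 842 and 641. The INTACT root tip lists had 585 and 1852 there, and the sucrose lists 360 and 499. The epidermal lists were thus not empty in gene-poor sequence as a whole.

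Gene-poor root tip loci were supported by the sucrose lists more often than gene-rich ones. At least 1 sucrose list held 21 of 50 gene-poor loci (42.0%, interval 29.4% to 55.8%), against 17 of 126 gene-rich loci (13.5%, interval 8.60% to 20.5%). Both sucrose lists held 11 (22.0%) and 6 (4.76%). Gene-poor loci were also wider, with a median of 296.5 bp against 240.75 bp, and 12 of the 13 loci of 500 bp or more were gene-poor. At the list minimum in both INTACT lists were 5 gene-poor loci, against 42 gene-rich loci (33.3%). Among shared loci, the sucrose share was 93.6% in gene-poor and 90.4% in gene-rich sequence.

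The distance from a root tip locus to the nearest region in any epidermal list had a median of 695 bp. It was under 150 bp for 30 loci and under 1000 bp for 103. Over 5000 bp away lay 23, of which 22 were gene-poor and 1 gene-rich. The median was 3473 bp for gene-poor and 485 bp for gene-rich loci. Of the 126 gene-rich loci, 29 thus lay under 150 bp from an epidermal region. These distances come from lists that the rule used and are a description. Gene-poor sequence, 13.5% of the genome, held 1.61% to 2.23% of the regions of the epidermal lists. Epidermal regions were therefore sparser there, which by itself makes distances longer. Distances from other gene-poor positions were not measured.

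**Figure D4:**
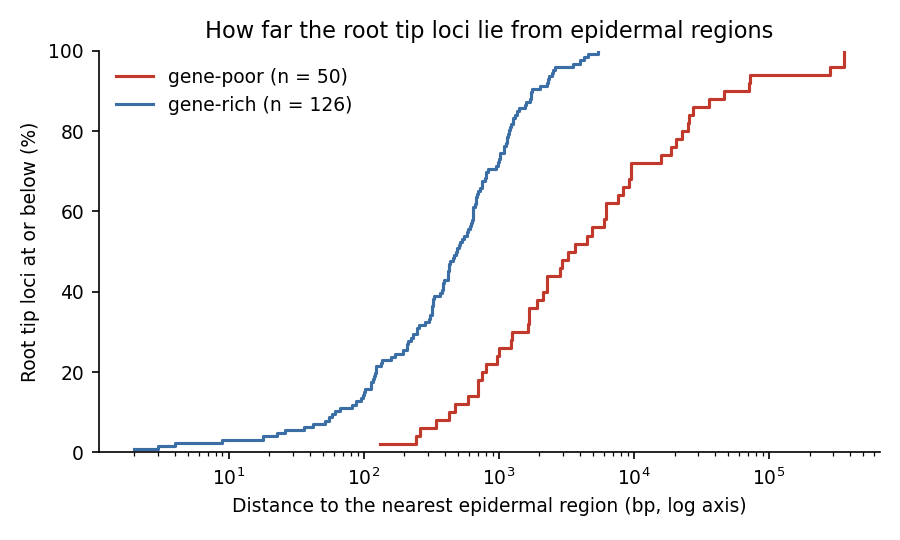
Cumulative percent of root tip loci by distance in bp to the nearest region of any of the 4 epidermal lists (log axis), for 50 gene-poor and 126 gene-rich loci. The gene-poor curve lies to the right, with medians of 3473 bp for gene-poor and 485 bp for gene-rich loci. The rule used these epidermal lists, and their regions are sparser in gene-poor sequence.

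The edge of the rule can be read at its nearest cases. The root tip locus closest to an epidermal region lay in AT2G25730 at chr2:10972101-10972497. Its INTACT regions were 273 and 331 bp wide, neither sucrose list held it, and the nearest regions were 5 and 33 bp away in the hair lists and 2 and 300 bp away in the non-hair lists. Others lay 3 bp from an epidermal region near AT1G56710 and 4 bp near ARL2. Just outside the rule, chr1:6296150-6296758 near AT1G18290 overlapped epidermal regions by 5 bp, and chr1:10056320-10056723 near AT1G28610 by 14 bp. Of the 12451 loci in both INTACT lists that the epidermal lists also hold, 3 overlapped by 50 bp or less. At the other end, the locus at chr1:14721195-14721509 lay 360392 bp from the nearest epidermal region, with INTACT widths of 238 and 315 bp and sucrose widths of 193 and 140 bp.

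The 10 root tip loci of highest width percentile over both INTACT lists were gene-poor with 1 exception. The first, at chr2:3612115-3613680, lay 2088 bp from AT2G07981 and measured 1537 and 1515 bp in the INTACT lists and 1181 and 479 bp in the sucrose lists. Its nearest epidermal region was 1232 bp away. A locus at chr5:11736720-11738499 measured 956 and 1780 bp in the INTACT lists and 588 and 462 bp in the sucrose lists, with an epidermal region 342 bp away. Both were thus found by each purification, in all 4 root tip lists.

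The other wide loci were less even. The locus at chr4:4003574-4004270 measured 638 and 663 bp in the INTACT lists and 357 and 379 bp in the sucrose lists. At chr5:12064632-12065373 the INTACT widths were 478 and 742 bp and the sucrose widths 150 and 140 bp. The locus at chr4:2953398-2954312, 5239 bp from AT4G05612, measured 721 and 915 bp in the INTACT lists and 220 and 0 bp in the sucrose lists, with the nearest epidermal region 36010 bp away. Neither sucrose list held chr5:11821723-11822576 (774 and 854 bp in the INTACT lists), chr5:11660351-11661277 (429 and 927 bp), chr1:15199985-15201266 (448 and 1282 bp) or chr1:15198290-15199121 (406 and 832 bp). In each of these 4 loci INTACT replicate 2 gave the wider region.

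The gene-rich exception lay 1327 bp from AT3G15590 at chr3:5278831-5279861 and measured 845 and 982 bp in the INTACT lists and 150 and 140 bp in the sucrose lists. The nearest epidermal region was 647 bp away. The sucrose widths are the smallest that those lists hold.

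**Figure D5:**
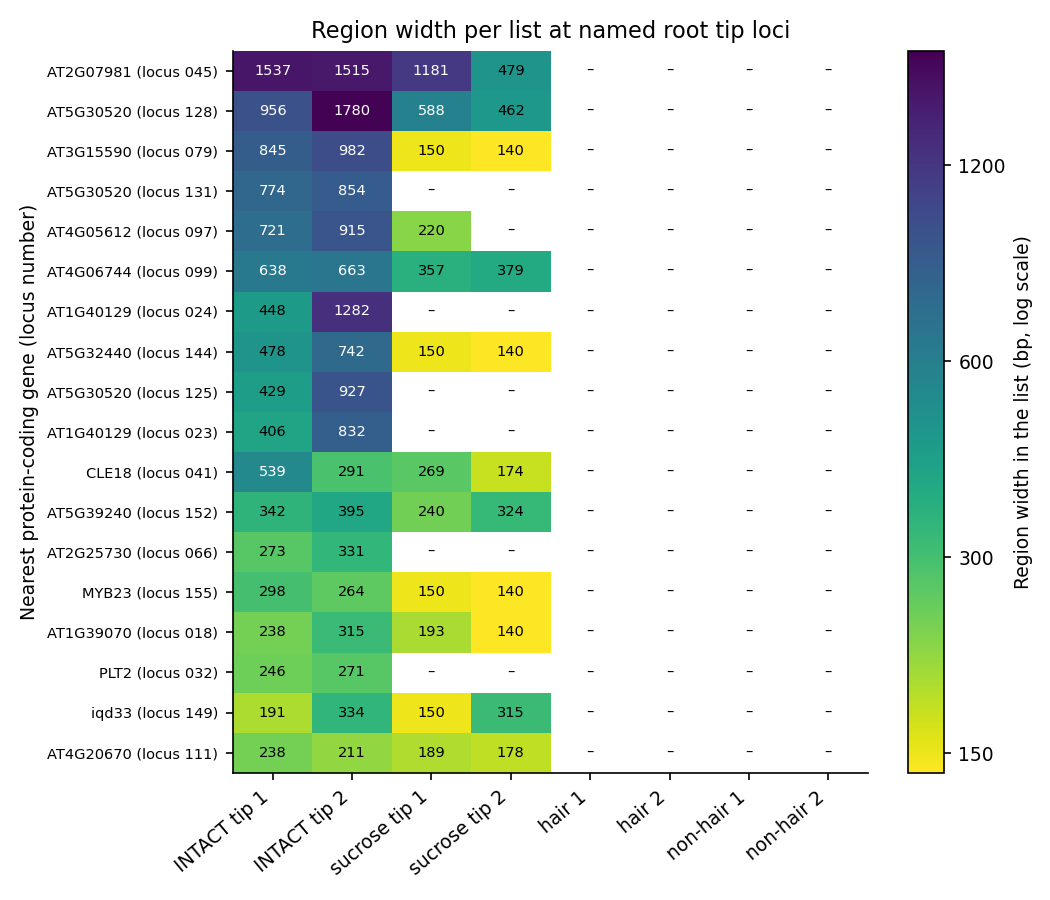
Width in bp of the regions in each of the 8 lists (colour, log scale, and printed number) at the named root tip loci, one row per locus with its nearest protein-coding gene; a dash means no region. Widths run from 191 to 1780 bp in the INTACT lists and up to 1181 bp in the sucrose lists, and the epidermal columns are empty by the rule.

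The midpoints of root tip loci fell in a gene body for 76 loci (43.2%), between genes and within 2 kb of one for 37 (21.0%), and farther from any gene for 63 (35.8%). Shared loci fell there in 36.6%, 56.8% and 6.62% of cases, epidermis-only loci in 49.6%, 44.9% and 5.51%, and all loci in both INTACT lists in 37.3% and 55.1% for the first 2 places. Of the 63 root tip loci far from genes, 48 were gene-poor. Among the 126 gene-rich root tip loci, 60.3% were in a gene body (interval 51.6% to 68.4%), 27.8% in the flanks (20.7% to 36.2%) and 11.9% farther away (7.35% to 18.7%), against 36.7%, 57.4% and 5.94% of gene-rich shared loci. Other classes were closer to the root tip loci than shared loci were. Loci in 1 epidermal list had 44.4% in a gene body and 32.0% in the flanks, those in 2 lists 57.2% and 30.4%, and all merged loci 55.5% and 36.7%. Where a midpoint within both a gene body and another gene's flank was assigned to the flank, 12.5% of root tip loci fell in a gene body and 51.7% in the flanks, so the order of these places follows from the priority given to gene bodies. The places of the root tip loci also moved with the list: without INTACT replicate 1, 63.1% fell in a gene body and 8.32% in the flanks, and without INTACT replicate 2, 35.3% and 49.3% did. A pseudogene held the midpoint of 6 root tip loci (3.41%, interval 1.57% to 7.24%), against 0.874% of shared loci. Among gene-poor loci the counts were 4 of 50 root tip loci (8%) and 13 of 280 shared loci (4.64%). Among gene-rich loci they were 2 of 126 (1.59%) and 88 of 11273 (0.781%). Within gene-poor and within gene-rich sequence the intervals of root tip and shared loci overlapped.

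The 8 gene lists cover root identity and growth, with 179 genes in all. A gene counts as next to a locus when it is the nearest protein-coding gene to the midpoint. Next to a root tip locus were 2 of the 179 (1.12%), against 148 of 27444 protein-coding genes in all (0.539%). Without INTACT replicate 1, and likewise without INTACT replicate 2, 24 listed genes were next to a locus that met the rule. Those settings held 4582 and 1417 loci, and the share of all protein-coding genes was not computed for them. The 24 therefore have no background. By list the counts were 1 of 18 genes of the stem cell niche and meristem and 1 of 22 genes of epidermal fate and root hairs. They were 0 of 49 cell cycle genes, 0 of 35 stele genes, 0 of 17 endodermis and cortex genes, 0 of 9 root cap genes, 0 of 18 auxin genes and 0 of 11 cytokinin genes. Shared loci lay next to 60 of the 179 (33.5%, against 32.7% of all genes), among them 6 niche, 14 cell cycle and 10 stele genes. Epidermis-only loci lay next to 44 (24.6%, against 20.3%).

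PLT2, the niche gene, had a root tip locus 3734 bp from its gene body at chr1:18973304-18973579. It measured 246 and 271 bp in the INTACT lists, and neither sucrose list held it. The nearest epidermal region was 118 bp away and belonged to chr1:18973683-18974180. That neighbour was in all 8 lists, at 498 and 409 bp in the INTACT lists, 436 and 386 bp in the sucrose lists, 376 and 318 bp in the hair lists and 377 and 330 bp in the non-hair lists. Near PLT2 the root tip locus thus stood beside a broader site open in every sample.

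Within 5 kb of this locus, 4 others had PLT2 as nearest gene. The one at chr1:18976811-18977045 had no epidermal region, with 191 and 0 bp in the INTACT lists and 150 and 140 bp in the sucrose lists, so it missed the rule by 1 INTACT list. The locus at chr1:18976340-18976736 had 342 and 284 bp in the INTACT lists, 364 and 222 bp in the sucrose lists, 127 and 0 bp in the hair lists and 293 and 247 bp in the non-hair lists. It was therefore absent from a single epidermal list. The last, chr1:18975949-18976079, was in non-hair replicate 1 alone, at 131 bp.

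MYB23, the epidermal fate gene, held a root tip locus inside its gene body at chr5:16128715-16129019. It measured 298 and 264 bp in the INTACT lists and 150 and 140 bp in the sucrose lists, and the nearest epidermal region was 951 bp away. All 4 root tip lists therefore held it, with both sucrose regions at the smallest width of their list.

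The other loci with MYB23 as nearest gene differed. That at chr5:16126467-16126768 had 302 and 211 bp in the INTACT lists, and 131 bp in non-hair replicate 1 as its single epidermal region. At chr5:16127522-16127763 there were 191 and 0 bp in the INTACT lists and 242 and 152 bp in the non-hair lists, with none in the hair lists. The locus at chr5:16130033-16130400 had 191 and 0 bp in the INTACT lists, 322 and 296 bp in the hair lists and 363 and 342 bp in the non-hair lists. The last, chr5:16128253-16128499, was in INTACT replicate 1 alone, at 247 bp. The gene thus carried sites of both kinds, and the root tip locus was the only one of the 5 in both INTACT lists with no epidermal region.

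The 17 root tip loci found in both sucrose lists have the broadest support, in all 4 root tip lists. Of these 17, 11 were gene-poor, and the MYB23 and AT3G15590 loci were among the 6 gene-rich ones. At chr1:24629528-24630066, 962 bp from CLE18, which encodes a small secreted signalling peptide, the INTACT widths were 539 and 291 bp and the sucrose widths 269 and 174 bp. The nearest epidermal region lay 124 bp away. The gene on the other side is TMK1, which encodes a receptor kinase of auxin signalling.

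The remaining gene-rich loci of this kind lay in or beside AT4G20670, iqd33 and AT5G39240. In AT4G20670, chr4:11092971-11093228 measured 238 and 211 bp in the INTACT lists and 189 and 178 bp in the sucrose lists, 4546 bp from any epidermal region. In iqd33, a member of the calmodulin-binding IQD family, chr5:13855745-13856132 measured 191 and 334 bp in the INTACT lists and 150 and 315 bp in the sucrose lists, 2459 bp from an epidermal region. Beside AT5G39240, at 638 bp, chr5:15711686-15712135 measured 342 and 395 bp in the INTACT lists and 240 and 324 bp in the sucrose lists, 690 bp from an epidermal region. The region of INTACT replicate 1 in iqd33, and the sucrose replicate 1 region there, were at the smallest width of their lists.

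Some other gene-rich root tip loci are given as examples at genes of known function, picked after their positions were seen, and they stand for no theme. A locus 1403 bp from YUC2, an auxin biosynthesis enzyme, at chr4:7725290-7725655 measured 244 and 311 bp in the INTACT lists. A locus in IPT2, a tRNA isopentenyltransferase that yields cytokinin precursors, at chr2:11825379-11825858 measured 191 and 476 bp. In BR6OX1, a brassinosteroid biosynthesis enzyme, chr5:15595828-15596038 had the smallest width of each INTACT list, 191 and 211 bp, and a region in 1 sucrose list. The YUC2 and IPT2 loci had none.

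At chr1:11627385-11627740 in KAN2, a factor of organ polarity, the region measured 352 and 315 bp in the INTACT lists. In PKL, a chromatin remodeller that represses embryonic genes in the root, chr2:10718016-10718340 measured 191 and 325 bp. In JAZ12, a repressor of jasmonate responses, chr5:7092255-7092533 measured 191 and 279 bp. In ENT7, a nucleoside transporter, chr1:22745554-22746088 measured 535 and 422 bp and was the widest of these. Neither sucrose list held any of these 4 loci. For PKL and JAZ12 the region of INTACT replicate 1 was at the smallest width of that list.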

How the data were processed

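ATAC-seq region lists of 8 Arabidopsis samples were used, 2 each of root tip INTACT, root tip sucrose, hair cell and non-hair cell nuclei, grouped by the sample labels. The deposited lists give a sequence name, start and end in bp, which served as other values with no score, signal or read total, so the depth is unknown and limits what a missing region can mean. The file names state HOMER region mode with a setting of 150. Bowtie2, HOMER and the build TAIR10 are named, with no role, version or parameters, per the submitters' processing notes. Read filters, any Tn5 offset and any pooling of replicates are not given in the sources used here.

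Regions on 5 chromosomes were joined at 1 bp of overlap. Width per list is the summed length of its regions in a locus. Shares have Wilson 95% intervals for counting error. Genes came from a RefSeq table of the assembly TAIR10.1, used for gene names, gene density and distances from list positions, since nuclear chromosomes share their numbering with TAIR10. As a check, 35.5% of shared loci fell in gene bodies as given, against 58.8% to 63.4% with the genes shifted by 2 to 10 kb (2311 shared loci, taken at even steps along the genome). The table has no strand, so the planned share upstream of gene starts was replaced by the share between genes within 2 kb, and the nearest gene was taken by gene body. Motif shares and sequences were not run, since no genome was used here.

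The loci and gene lists were chosen with earlier results of these data known. Named loci were the 10 of highest width percentile in both INTACT lists, the 5 of highest percentile also in both sucrose lists, the nearest to and farthest from an epidermal region, and those next to a listed gene. Others named in the text were chosen after their values were seen. The routines that joined regions, sorted loci by list and measured distances were tested on simulated data. Purified genomic DNA and the other species were not analysed here. Scripts ran in Python 3.11.15 with pandas 2.3.3 and NumPy 2.4.6. Intervals used SciPy 1.17.1, and figures Matplotlib 3.10.9.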

Additional observations from a re-analysis of the deposited data

How the results depend on the processing

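Of 111 values computed under alternatives for 7 results, 55 left out no replicate; 31 of these stayed near the reported value (a count within 1.5 times, a share within its Wilson interval, a median width within 54.8 bp) and 24 moved. The number of loci, 176, was 99 with regions under 500 bp apart joined, 762 with the 23288 widest regions of each of the 6 INTACT-purified lists (equal numbers), 17 with the widest 50% of each root tip INTACT list, and 176 to 4582 with 1 list left out. The share in both sucrose lists was 20.5% with equal numbers of regions, 35.3% with the widest 50%, and 4.76% for gene-rich loci alone. It was 3.98% where each sucrose list had to cover at least 50% of the span of the INTACT regions. With 1 INTACT-purified list left out it ran from 0.480% to 12.9%. With 1 sucrose list left out, the value was the share in the remaining list alone. That was 13.6% without sucrose replicate 1 and 17.6% without sucrose replicate 2. The median width was 478.5 bp with the widest 50% and 191 to 261 bp with 1 list left out. The gene body share was 11.8% with the widest 50%, 12.5% with flanks given priority, 60.3% for gene-rich loci, and 35.3% to 63.1% with 1 list left out. The flank share was 36.6% with equal numbers, 29.4% with the widest 50%, 33.0% with all gene types, 51.7% with flanks given priority, 14.8% with 1 kb flanks, 27.8% for gene-rich loci, and 8.32% to 49.3% with 1 list left out. The gene-poor share was 14.8% with equal numbers, 47.1% with the widest 50%, and 6.85% to 28.8% with 1 list left out. Listed genes next to a locus numbered 0 with joining, 9 with equal numbers, 0 with the widest 50%, 1 where the gene with 1 kb each side had to overlap, 1 for loci at least 150 bp from every epidermal region, and 2 to 24 with 1 list left out. The share of all protein-coding genes was not computed under these alternatives. Gene-rich loci alone, the 150 bp limit and every gene-poor share were chosen after seeing the data. No paired analysis was possible because the results are counts and shares from no test. Depth is unknown, and the sucrose lists are the shortest here, so a region missing from them was not detectable at their depth or was not open, which cannot be told apart.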
